A study of Caenorhabditis elegans with 2 samples.

Results

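The genes described here are the 346 snoRNA genes of Caenorhabditis elegans, out of 46890 genes annotated on the nuclear chromosomes of the WBcel235 genome build (ce11). Every gene of biotype snoRNA was taken, and 216 of them lay wholly within the body of a protein-coding gene, in 188 different hosts, while 130 lay outside protein-coding genes. For each gene, summits of NHR-20 binding were sought from 1000 bp upstream to 300 bp downstream of the annotated start, which for a snoRNA is usually the first base of the mature RNA. Binding came from chromatin immunoprecipitation followed by sequencing (ChIP-seq) in 1 group of 2 biological replicates, so no comparison of conditions was possible. The worms were whole hermaphrodite L1 larvae of strain OP515, genotype unc-119(tm4063) III with the integrated transgene wgIs515, taken 6 hours after a synchronization at the starved first larval stage. The transgene expresses NHR-20, a nematode nuclear hormone receptor, with GFP and FLAG at its C-terminus, and an antibody against GFP was used after sonication. The line is transgenic and the tissue is the whole animal, so the cells in which the receptor met these genes are not known, and no pull-down from untagged animals was analysed here.

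Small nucleolar RNAs guide the chemical modification of ribosomal RNA: those with boxes C and D direct 2′-O-methylation, and those with boxes H and ACA direct pseudouridylation. Many animal snoRNAs are cut from the introns of a host pre-mRNA and depend on the host promoter, and ribosomal protein genes are frequent hosts. Others, in nematodes including some that lie within introns, are transcribed from promoters of their own. Small nuclear RNA genes carry a proximal sequence element upstream of the start, whereas tRNA genes carry their A and B box promoter elements within the transcribed sequence.

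A part of the snoRNA genes with binding next to the start had 1 of 2 short sequences upstream, and these are shown first because results below refer to them. The 110 bases before each start are printed 5′ to 3′ on the strand of the gene, from the RefSeq genome sequence of build WBcel235, with the matching letters in capitals. In the first set the capitals mark GNAACNNG followed, after 5 bases, by TGTCNG (N is any base), called the paired element below. It was defined after the summits and sequences had been seen. The set holds 3 snoRNA genes inside a host and 3 outside as examples. The sequences of F59C6.15 and F25H2.15 outside and Y37E3.20 inside, which also had the element and signals of 1197, 610 and 548, are not printed. F01D5.12 and Y37E3.20 are named although they fell outside the rule for named genes.
C08D8.3: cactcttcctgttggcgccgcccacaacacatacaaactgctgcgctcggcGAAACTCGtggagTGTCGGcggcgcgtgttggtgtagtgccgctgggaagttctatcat
ZK994.7: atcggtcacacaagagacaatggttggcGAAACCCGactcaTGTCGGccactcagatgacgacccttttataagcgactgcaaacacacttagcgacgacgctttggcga
F01D5.12: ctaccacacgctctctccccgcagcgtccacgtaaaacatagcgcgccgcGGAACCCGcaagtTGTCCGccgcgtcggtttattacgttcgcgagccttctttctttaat
Y53F4B.47: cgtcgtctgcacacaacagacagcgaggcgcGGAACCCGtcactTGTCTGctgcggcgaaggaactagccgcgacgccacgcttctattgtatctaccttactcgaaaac
T26A8.6: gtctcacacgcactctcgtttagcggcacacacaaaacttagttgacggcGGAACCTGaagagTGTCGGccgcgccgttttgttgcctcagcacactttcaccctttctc
Y67A10A.14: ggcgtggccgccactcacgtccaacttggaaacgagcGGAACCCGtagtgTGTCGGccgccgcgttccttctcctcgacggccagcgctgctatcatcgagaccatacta
The windows were chrV:8348998-8349107, plus strand for C08D8.3, chrV:8500469-8500578, plus strand for ZK994.7, chrII:14018442-14018551, minus strand for F01D5.12, chrII:15025894-15026003, minus strand for Y53F4B.47, chrIV:8428740-8428849, minus strand for T26A8.6 and chrIV:14327122-14327231, minus strand for Y67A10A.14. C08D8.3, ZK994.7 and F01D5.12 lay in introns of C08D8.1, pxn-1 and F01D5.10, and the summits of these 6 genes lay between 35 and 77 bp upstream of the start.

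In the second set the capitals mark TGGNNNAGT and, further downstream, GTTCNANNC, which are letters found in the A and B boxes of tRNA genes. The capitals lie before the annotated snoRNA start, so they belong to no annotated mature snoRNA. These 6 genes are examples, 3 inside and 3 outside, also chosen after their values had been seen. The sequence of T08B2.13, an inside gene with the same letters and a signal of 418, is not printed.
M106.6: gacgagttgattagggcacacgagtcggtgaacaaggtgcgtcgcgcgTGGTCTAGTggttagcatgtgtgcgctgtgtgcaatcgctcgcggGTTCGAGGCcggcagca
T03F7.8: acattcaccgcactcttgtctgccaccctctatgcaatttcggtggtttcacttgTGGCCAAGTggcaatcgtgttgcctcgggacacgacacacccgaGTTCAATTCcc
C04G6.12: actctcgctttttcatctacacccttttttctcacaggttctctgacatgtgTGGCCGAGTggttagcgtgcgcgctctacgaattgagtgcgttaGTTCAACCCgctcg
T10B9.11: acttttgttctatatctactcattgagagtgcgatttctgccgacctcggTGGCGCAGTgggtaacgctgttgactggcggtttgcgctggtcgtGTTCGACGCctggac
F30H5.4: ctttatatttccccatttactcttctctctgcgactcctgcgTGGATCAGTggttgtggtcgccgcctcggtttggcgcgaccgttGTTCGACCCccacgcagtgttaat
Y75B12B.12: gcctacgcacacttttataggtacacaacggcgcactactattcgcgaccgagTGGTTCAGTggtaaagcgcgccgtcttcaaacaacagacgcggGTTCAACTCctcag
The windows were chrII:10840207-10840316, plus strand for M106.6, chrV:11314148-11314257, plus strand for T03F7.8, chrII:5105232-5105341, minus strand for C04G6.12, chrII:9774835-9774944, minus strand for T10B9.11, chrIII:502694-502803, plus strand for F30H5.4 and chrV:15191094-15191203, minus strand for Y75B12B.12. M106.6, T03F7.8 and C04G6.12 lay within mix-1, cutl-18 and mpk-2. As an example without a match, the same stretch is printed for K11H12.12, a snoRNA gene in an intron of the ribosomal protein gene rpl-15. Neither set of letters was found before 304 of 346 snoRNA genes (87.9%), so their absence is usual.
K11H12.12: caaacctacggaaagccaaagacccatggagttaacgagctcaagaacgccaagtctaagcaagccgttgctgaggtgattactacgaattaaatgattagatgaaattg
That window was chrIV:654031-654140, minus strand.

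A thresholded summit lay in the window of 152 of 346 snoRNA genes, a share of 43.9% (exact binomial 95% interval 38.6 to 49.3%), against 14.3% of all annotated genes and 20.6% of protein-coding genes with the same window. For protein-coding genes the window was laid at every annotated protein-coding transcript start, so those with several starts were searched over more sequence. By location, 81 of 216 genes inside hosts (37.5%, interval 31 to 44.3%) and 71 of 130 genes outside (54.6%, interval 45.7 to 63.4%) had a summit. The intervals cover counting error only, and genes that share a host or a summit are not independent, so no test of this difference was made. With the 6423 strongest regions of each replicate alone, the shares were 37.5% inside and 54.6% outside in replicate 1, and 40.3% and 56.9% in replicate 2. Among other classes of small RNA, 50.3% of 612 tRNA genes, 27.9% of 129 snRNA genes and 20.7% of 261 miRNA genes had a summit in the window. Split in the same way, inside and outside shares were 48.6% and 51.9% for tRNA, 28.6% and 27.3% for snRNA and 26.4% and 16.8% for miRNA genes. Genes of biotype ncRNA had 12.3% inside and 20.9% outside, so a higher outside share was not particular to snoRNA genes. The snoRNA windows held 161 distinct summits, of which 8 lay in the windows of more than 1 snoRNA gene.

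The summits were concentrated immediately upstream of the snoRNA start in both locations. Of 83 pairs of an inside gene and a summit, 38 lay from 100 to 1 bp upstream, and no other 100-bp bin held more than 9. Of 86 such pairs outside, 44 lay in that bin and no other bin held more than 7. A band from 150 bp upstream to the start, set after these positions had been seen, is called proximal below. It held a summit for 89 snoRNA genes (25.7%, interval 21.2 to 30.7%), with 41 inside (19%, interval 14 to 24.9%) and 48 outside (36.9%, interval 28.6 to 45.8%). Of the 48 outside summits, 22 also lay in a promoter window, the same window laid at protein-coding starts. Without summits in promoter windows, 30 inside genes (13.9%, interval 9.57 to 19.2%) and 26 outside genes (20%, interval 13.5 to 27.9%) remained. These intervals overlap. The same band held a summit in 3.95% of all annotated genes, 6.16% of protein-coding genes, 32.7% of tRNA genes, 20.9% of snRNA genes and 2.3% of miRNA genes. The median position was 55 bp upstream inside and 56 bp upstream outside, with middle ranges of 73 to 45 bp and 72.5 to 43 bp. The proximal summit farthest upstream, at T28B8.11, lay 144 bp from the start, and the nearest summit upstream of the band, at W06H8.17, lay 211 bp away. On the downstream side the nearest summits, at F07A11.15 and F17C11.24, lay 26 bp past the start, so that edge is less clear. Of the 89 proximal summits, 79 had a snoRNA start as the nearest start of any annotated gene.

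**Figure D1:**
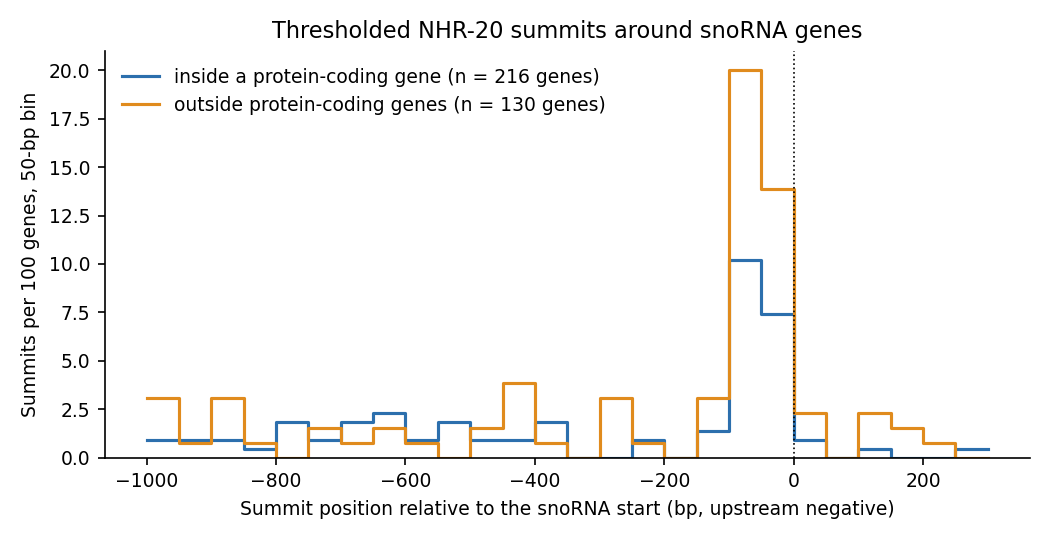
Position of thresholded summits relative to the snoRNA start in 50-bp bins (x axis, bp, upstream negative), as summits per 100 genes (y axis), for 216 genes inside protein-coding genes and 130 outside. Both lines peak in the 100 bp before the start, where 38 inside and 44 outside pairs lie.

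**Figure D2:**
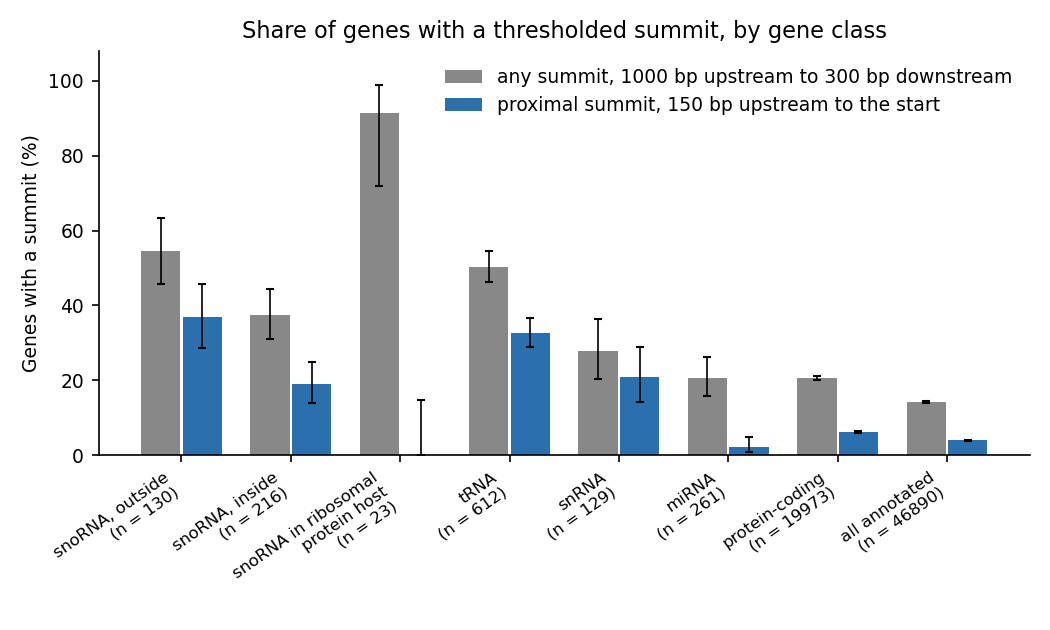
Share of genes with a thresholded summit (y axis, %) by gene class (x axis), for the whole window in grey and for the proximal band in blue, with exact binomial 95% intervals. Proximal shares are 36.9% outside and 19% inside, and 0 of 23 for snoRNA genes in ribosomal protein hosts. The proximal band was set from snoRNA positions.

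Median signals of proximal summits were close in the 2 locations. The authors' signal had a median of 323 inside (range 90.8 to 664) and 322 outside (range 96.6 to 1261), where the median of the 6423 thresholded summits was 169. Proximal summits of tRNA genes had a median of 190 and those of snRNA genes 258. Both replicates held 86 of the 89 proximal summits among their 6423 strongest regions within 200 bp (96.6%), against 5170 of all 6423 summits (80.5%). All these summits had passed the authors' irreproducible discovery rate step, which selects reproducible regions, so agreement of the replicates was favoured in advance. The proximal summits were not matched to the others for signal. Both replicates were compared with 1 control alignment, so an error in that control would be common to them.

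**Figure D3:**
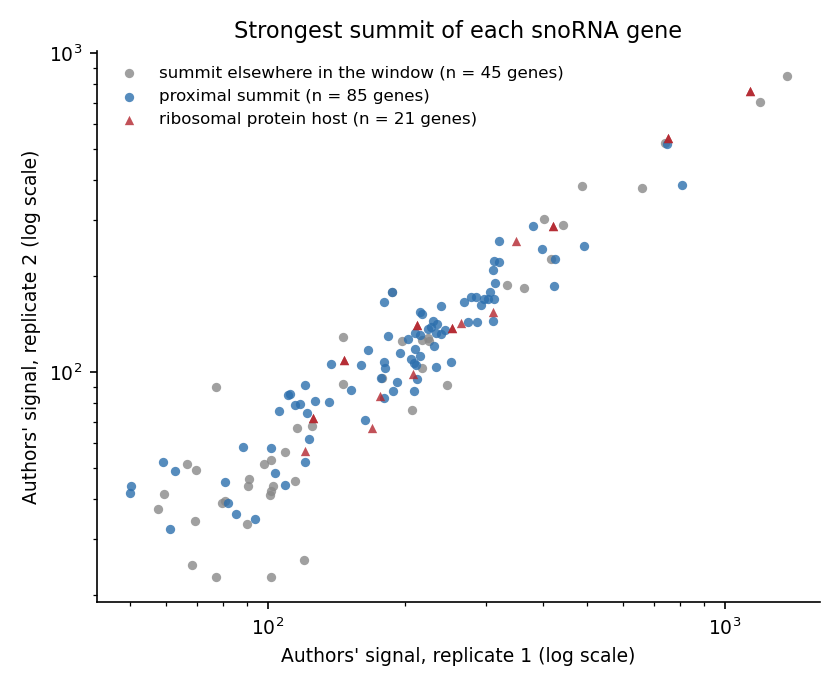
Authors' signal of the strongest summit of each snoRNA gene in replicate 1 (x axis, log scale) and replicate 2 (y axis, log scale) for 151 genes, with 85 proximal summits in blue, 21 genes in ribosomal protein hosts as red triangles and 45 other genes in grey. High signals in one replicate are high in the other, which selection of these summits for reproducibility favours. The strongest points are red or grey as well as blue.

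Outside protein-coding genes, the strongest proximal summit belonged to Y53F4B.47. It ranked 48 of 6423 with a signal of 1261, 77 bp upstream of the start, and had signals of 749 in replicate 1 (rank 54) and 520 in replicate 2 (rank 43). F59C6.15 followed with a signal of 1197 at rank 58, 67 bp upstream, and ranks of 39 and 105 in the replicates. Each of these summits also lay in the promoter window of a protein-coding gene, cmtr-1 and F59C6.18 respectively, so their assignment is shared. M7.15, in the promoter windows of let-70 and klc-1, had a signal of 733 at 70 bp upstream. F09G2.14, in those of F09G2.2 and attf-2, had a signal of 650 at 85 bp. D2021.6, in that of sdha-1, had a signal of 645 at 33 bp. At D2021.6 the nearest start was that of another noncoding gene, D2021.5.

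The proximal summits of T26A8.6 and F25H2.15 lay in no protein-coding promoter window. The signal at T26A8.6 was 533 at 43 bp upstream, with 313 in replicate 1 and 223 in replicate 2. At F25H2.15 it was 610 at 53 bp upstream, with 424 in replicate 1 and 186 in replicate 2, and a weaker summit of 160 at 154 bp downstream lay in such a window. Y67A10A.14 had a signal of 489 at 48 bp upstream, in a window shared with fbxa-83, and ZK20.9 had a proximal summit of signal 354 at 23 bp upstream besides a stronger one of 546 at 866 bp upstream. The remaining strong genes outside hosts had no proximal summit: W06H8.17 (signal 1268, 211 bp upstream), W01H2.11 (875, 560 bp upstream) and T27A8.8 (729, 807 bp upstream). For W06H8.17 and W01H2.11 another noncoding gene started nearer to the summit, and that of W06H8.17 also lay in the promoter window of W06H8.6. ZK484.11 and C26C6.13 were the only snoRNA genes with 3 summits, all weak, with highest signals of 136 and 123. The summit of C26C6.13 had a candidate within 200 bp in replicate 2 and none in replicate 1.

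Inside hosts, most summits fell into 2 arrangements: next to the snoRNA start, or at the promoter of the host. Of the 81 inside genes with a summit, 41 had a proximal one, and 30 of these 41 summits lay outside every protein-coding promoter window. The other 40 genes had none in the band, and in 34 of them every summit lay in the promoter window of the host. The snoRNA genes with a proximal summit began a median of 1430 bp from the nearest host start, those with only other summits 360 bp, and those without a summit 1702 bp. Proximal summits were found for 7 of 32 genes starting within 300 bp of the host start, 5 of 55 over 300 and up to 1000 bp away, 15 of 47 over 1000 and up to 2000 bp away and 14 of 82 beyond 2000 bp. The share with any summit was 75%, 45.5%, 34% and 19.5% in the same 4 bins, and near the host start the 2 windows overlap by construction.

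**Figure D4:**
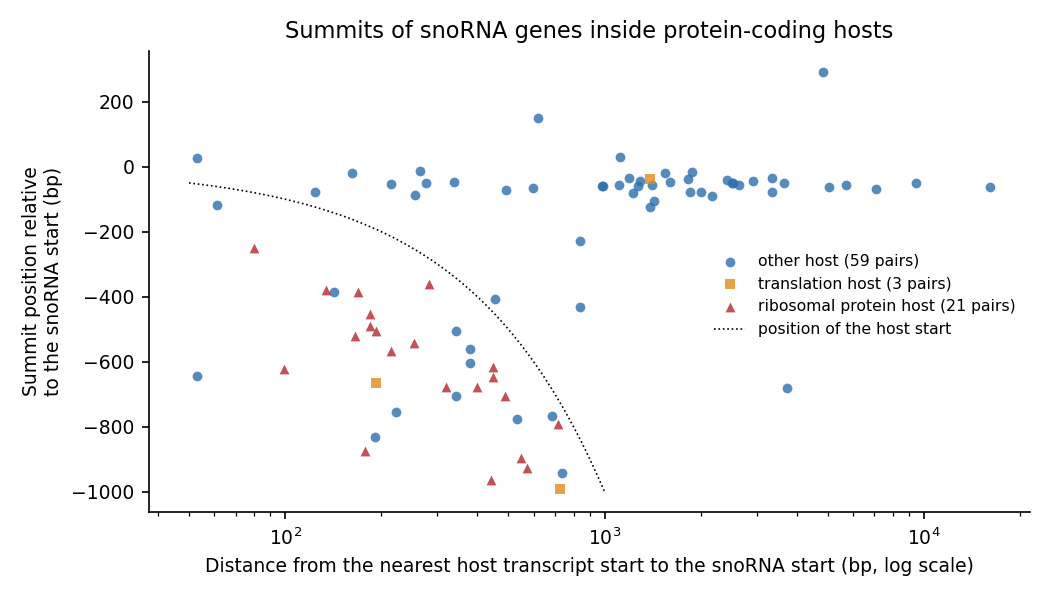
Summit position relative to the snoRNA start (y axis, bp) against the distance from the nearest host transcript start to the snoRNA start (x axis, bp, log scale) for inside genes, with 59 pairs in other hosts, 3 in translation hosts and 21 in ribosomal protein hosts. A horizontal band near 0 runs across all distances, and the red triangles lie below the dotted line that marks the host start, upstream of the host.

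C08D8.3, 80 bases long and 3349 bp into C08D8.1, had the strongest proximal summit of an inside gene. Its signal was 664 at rank 344, 35 bp upstream, with 380 in replicate 1 and 288 in replicate 2. ZK994.7 lay 5690 bp into pxn-1, which encodes a peroxidasin, and had a signal of 579 at 55 bp upstream, with 321 and 258 in the replicates. F01D5.12 had a signal of 524 at 49 bp upstream, with 312 and 209. No host start lay within 2000 bp of these 3 genes, and no protein-coding promoter window held their summits. M106.6 lay 16071 bp into mix-1, a subunit gene of condensin and the dosage compensation complex, and had a signal of 457 at 63 bp upstream, with 311 and 145. Of 33 inside genes on the strand opposite to the host, 11 had a proximal summit (33.3%, interval 18 to 51.8%), against 30 of 183 on the same strand (16.4%, interval 11.3 to 22.6%), and these intervals overlap. A summit outside every protein-coding promoter window was found for 12 (36.4%, interval 20.4 to 54.9%) and 24 (13.1%, interval 8.59 to 18.9%), where they do not. The upstream window runs toward the host promoter on the same strand and away from it on the opposite strand, so this measure differs by construction. Any summit was found for 39.4% on the opposite strand and 37.2% on the same strand. For proximal summits outside promoter windows the shares were 30.3% (interval 15.6 to 48.7%) and 10.9% (interval 6.8 to 16.4%), which overlap. None of these differences was tested. In introns, 39 of 172 genes had a proximal summit (22.7%), and of the 44 that overlapped a host exon, 2 had one (4.55%, interval 0.555 to 15.5%).

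Ribosomal protein hosts showed only the second arrangement. Their 15 genes held 23 snoRNA genes, of which 21 had a summit in the window (91.3%, interval 72 to 98.9%) and 0 had a proximal summit (0 of 23, interval up to 14.8%). All 23 started 80 to 953 bp from the host start. Among all inside genes, these included, proximal summits were also few over 300 and up to 1000 bp away (5 of 55, 9.09%). Within 300 bp there were 7 of 32 (21.9%). Host class and distance were not separated, and their parts were not tested. Every one of the 21 strongest summits lay upstream of the host start, by 522 to 80 bp with a median of 288 bp, and 250 to 964 bp upstream of the snoRNA start. The 2 genes without one, R151.13 in rpl-6 and Y43B11AR.7 in rps-4, started 953 and 752 bp from the host start. All 15 hosts had a promoter summit, and so did 55 of 64 ribosomal protein genes without a snoRNA (85.9%, interval 75 to 93.4%).

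The strongest was at rpl-15, host of K11H12.12 and K11H12.13, with a signal of 1873 at rank 14, and 1135 in replicate 1 and 764 in replicate 2. It was followed by rps-12, host of F54E7.10 and F54E7.11, with 1293 at rank 39, and 752 and 544 in the replicates. Next were rpl-7A, host of Y24D9A.9 and Y24D9A.10, with 710 at rank 291, and rps-23, host of F28D1.13, with 602 at rank 406. The promoter summit of rps-4, beyond the window of its snoRNA gene, had a signal of 569 at rank 465. The hosts rpl-24 (D1007.20), rps-13 (C16A3.11), rpl-6 (R151.11 and R151.12) and rps-27A (H06I04.8 and H06I04.9) had signals of 463, 416, 397 and 357. Lower still were rpl-4 (B0041.9) at 311, rps-29 (B0412.6 and B0412.7) at 275, rpl-26 (F28C6.11) at 261 and rpl-7 (F53G12.12) at 237. The weakest were rpl-27A (Y37E3.21 and Y37E3.22) at 193 and rpl-8 (B0250.19) at 172. A summit shared by 2 snoRNA genes of 1 host is 1 measurement, so these 21 genes rest on 14 distinct summits. For 10 of the 14 the nearest annotated start was that of another gene, such as ska-3 beside rps-12, and for rpl-15, rpl-7A, rpl-6 and rps-27A it was that of the host.

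Of 7 snoRNA genes in translation hosts, 3 had a summit. F54C9.12 in iff-2, which encodes a translation factor of the eIF5A family, had a signal of 1893 at rank 13, 70 bp upstream of the host start and 665 bp upstream of the snoRNA start. F17C11.15 in eef-1G, an elongation factor gene, had a signal of 1037 at rank 92, 12 bp upstream of the host start. The iff-2 summit also lay in the promoter window of F54C9.14, and the eef-1G summit in that of ctf-4. T08B2.13 in fars-1, which encodes a subunit of a phenylalanyl-tRNA synthetase, differed from F54C9.12 and F17C11.15. It had a proximal summit of 418 at 39 bp upstream and 1353 bp downstream of the host start. That summit also lay in the promoter window of mrpl-23, and its nearest start belonged to T08B2.t1, annotated as a pseudogene, so its assignment is shared.

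The promoter arrangement was not limited to hosts of the translation machinery. C06A1.9 in cdc-48.1, which encodes an AAA-type ATPase, had the strongest summit of all snoRNA windows, at rank 6 with a signal of 2174, and 1367 in replicate 1 and 851 in replicate 2. It lay 162 bp upstream of the host start and 505 bp upstream of the snoRNA start. B0393.10 in fbxl-2 had a signal of 692 at 80 bp upstream of the host start. C04A2.16 in egl-27, a chromatin regulator gene, was an exception, with a summit of 633 that lay 403 bp downstream of the nearest host start and in no promoter window. The host nol-56, named after its values were seen because it held the most snoRNA genes, encodes a core protein of box C/D particles and contained 4. Of these only K07C5.11, 142 bp from the host start, had a summit in its window, with a signal of 530 at 243 bp upstream of the host start.

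Among all hosts, 92 of 188 had a promoter summit (48.9%, interval 41.6 to 56.3%), against 20.4% of the 19785 protein-coding genes without a snoRNA. Promoter windows were laid at every annotated transcript start, and hosts must be long enough to contain a snoRNA gene. The hosts were not matched to the other genes for length or number of starts, and the part of these in the difference was not tested. For the 168 hosts that by symbol were neither ribosomal protein nor translation genes, mrps-2 included, the count was 74 (44%, interval 36.4 to 51.9%). Among genes of the same symbol class without a snoRNA, not matched to these hosts, the share was 20%. The host count was 68 (40.5%, interval 33 to 48.3%) when proximal summits of snoRNA genes were not counted for the host.

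The paired element lay in the 110 bases before 30 of 346 snoRNA starts (8.67%), on the strand of the gene. It was found before 21 of the 89 genes with a proximal summit (23.6%, interval 15.2 to 33.8%) and 9 of the 257 without one (3.5%, interval 1.61 to 6.54%). It preceded 22 of 129 snRNA genes (17.1%), 6 of 19973 protein-coding genes (0.03%) and 0 of 23 snoRNA genes in ribosomal protein hosts (interval up to 14.8%, which includes the 8.67% of all snoRNA genes). Its first base lay 82 to 56 bp upstream of the snoRNA start with a median of 60.5 bp. Of the 30 genes with the element, 21 had a proximal summit (70%, interval 50.6 to 85.3%), 11 of 15 inside and 10 of 15 outside. The median signal of these summits was 479, and they lay a median of 9 bp downstream of the centre of the element. Over both strands of the whole genome the element matched at 939 places. A summit lay within 100 bp of 21 of the 30 before snoRNA starts, 12 of 21 before snRNA starts, and 3 of the 871 that preceded no start of a snoRNA, snRNA, tRNA, miRNA, other ncRNA or protein-coding gene (0.344%, interval 0.0711 to 1%). The element was written down from sequences before snoRNA genes with a proximal summit. The high shares at snoRNA genes therefore describe the data that defined it, and the intervals do not allow for that choice.

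The tRNA-like pair of letters lay before 12 snoRNA genes, 7 inside and 5 outside, and 10 of these had a proximal summit, with a median signal of 337. The pair ended 16 to 1 bp before the annotated snoRNA start. The downstream letters GTTCNANNC alone lay before 33 snoRNA genes (9.54%), of which 25 had a proximal summit (75.8%, interval 57.7 to 88.9%), with a median signal of 305. Among protein-coding genes these letters lay before 445 of 19973 starts (2.23%), and 30 of those had a proximal summit (6.74%). No snoRNA gene held both the paired element and the tRNA-like pair.

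Together the paired element or the letters GTTCNANNC preceded 46 of 89 snoRNA genes with a proximal summit (51.7%, interval 40.8 to 62.4%) and 17 of 257 without (6.61%, interval 3.9 to 10.4%). Without either, 43 of 283 snoRNA genes had a proximal summit (15.2%, interval 11.2 to 19.9%), 17 of 183 inside (9.29%, interval 5.51 to 14.5%) and 26 of 100 outside (26%, interval 17.7 to 35.7%). With the paired element or with GTTCNANNC, inside and outside shares were 73.3% and 66.7%, and 72.2% and 80%, each on 18 genes or fewer with wide, overlapping intervals. M7.15, F09G2.14 and D2021.6 had neither match, and their proximal summits were in places 3, 5 and 6 when the 89 were ordered by signal. The letters of both elements were written down from the proximal sequences themselves, so their frequency there is a description. The same holds for the shares of snoRNA genes with a match that had a proximal summit.

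**Figure D5:**
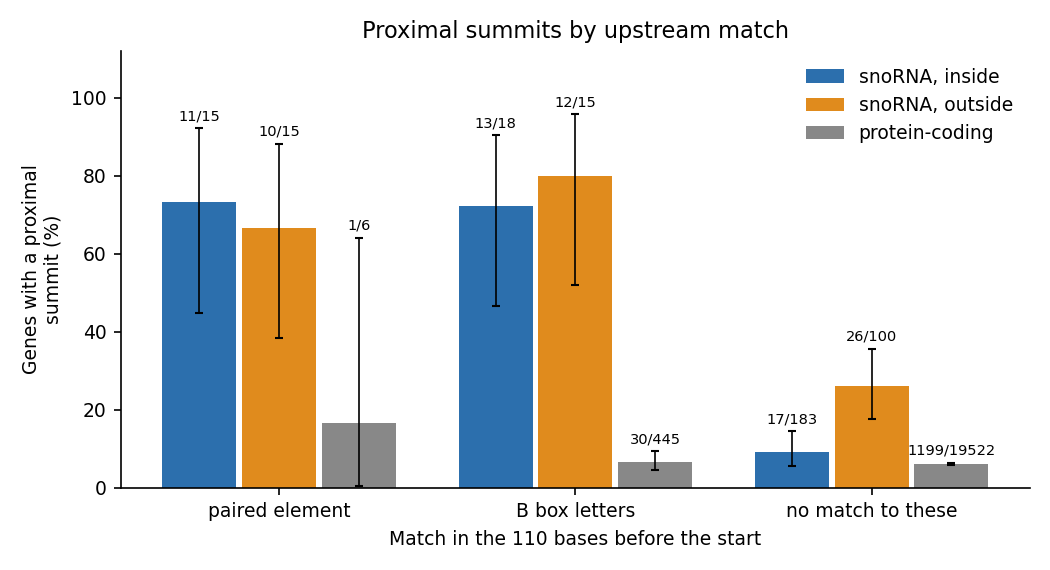
Share of genes with a proximal summit (y axis, %) by the match in the 110 bases before the start (x axis), for snoRNA genes inside (blue) and outside (orange) protein-coding genes and for protein-coding genes (grey), with exact binomial 95% intervals and counts above the bars. Shares for snoRNA genes with a match lie between 66.7% and 80%, and those without either match are 9.29% inside and 26% outside. The matches were written down from sequences before snoRNA genes with a proximal summit, so the snoRNA shares are descriptions.

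Base composition moved with the proximal summits. The median GC content of the 110 upstream bases was 54.5% for snoRNA genes with a proximal summit and 40.9% for those without, and 32.7% for protein-coding genes. The part of base composition in these results was not tested. Fixed short motifs were searched on both strands in the 150 bases before the start. GTTCGA, the core of the tRNA B box, which overlaps the letters above, was present in 20.2% of the 89 genes with a proximal summit (interval 12.4 to 30.1%), 7.39% of the 257 without (interval 4.51 to 11.3%) and 4.47% of protein-coding genes. AGGTCA, the core site recognized by many nuclear hormone receptors, was present in 4.49%, 4.28% and 4.53% of the same groups, and in 3.37% of windows reaching 60 bases to either side of proximal summits against 5.36% around all thresholded summits. GAGAGA was present in 27%, 13.2% and 12.8%, TATAAA in 16.9%, 12.5% and 25.4%, and CACGTG in 4.49%, 2.33% and 3.43%. In the windows around proximal summits and around all thresholded summits, the shares were 16.9% and 5.15% for GTTCGA, 15.7% and 30% for GAGAGA, 14.6% and 7.57% for TATAAA, and 3.37% and 8.83% for CACGTG. The letters GAGAGA were thus more frequent before genes with a proximal summit than before those without, and less frequent around proximal summits than around thresholded summits in general.

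The annotated RNAs differed in length between the groups. All entries of the biotype were treated alike, and differences in the evidence behind each annotation were not assessed. The median annotated length was 103 bases for the 89 genes with a proximal summit and 133 bases for the 257 without, and 131 bases for the 23 in ribosomal protein hosts. The letters TGATGA of box C within the first 25 bases and CTGA of box D within the last 25 were both found in 15 of 346 genes, in 9 of 89 with a proximal summit (10.1%) and in 6 of 257 without (2.33%). So few exact matches leave most genes unassigned to a box class by this search, and boxes H and ACA were not searched.

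By chromosome, proximal summits lay at 14 of 30 outside genes and 7 of 44 inside genes on chromosome I, 11 of 28 and 9 of 43 on II, 3 of 10 and 6 of 44 on III, 10 of 23 and 7 of 36 on IV, 6 of 16 and 12 of 39 on V, and 4 of 23 and 0 of 10 on X. The outside share was the higher on each of the 6 chromosomes, from 17.4% on X to 46.7% on chromosome I, with between 10 and 30 outside genes on each. Without summits in protein-coding promoter windows, it was the lower on II (14.3% against 18.6% inside) and V (18.8% against 25.6%). It stayed the higher on the other chromosomes.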

How the data were processed

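The authors deposited ce11 lists of ChIP-seq regions with a signal value that their peak caller set relative to a control alignment and with −log10 q-values. In the sources used here, the aligner, caller and threshold are not given. Each replicate and the pool of both had 30000 candidate regions, and 6423 pooled regions remained after the authors' irreproducible discovery rate step, with signal from 86 to 2711. Read depth is unknown. The 2 labelled biological replicates are compared with 1 control alignment. Gene models were from Ensembl release 115. Windows, hosts, distances and sequence matches were computed with Python 3.11.15, numpy 2.4.6 and scipy 1.17.1, and window assignment was checked on planted summits. The host was the shortest protein-coding gene that contained the snoRNA gene, the same strand first. Ribosomal protein and translation hosts were defined by gene symbol. Summits were matched to a replicate list within 200 bp. Shares have exact binomial (Clopper-Pearson) 95% intervals, and no test was run. Members, lists, the proximal band and the upstream elements were chosen with earlier results of these data known. Named genes were the 12 strongest inside and 12 strongest outside, those in ribosomal protein or translation hosts with a summit, the 6 strongest outside promoter windows and those with 3 or more summits. Other windows, thresholds, replicates and host definitions were tried.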

Additional observations from a re-analysis of the deposited data

How the results depend on the processing

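Of 73 recounts of these results, 61 lay within 1.5 times the reported count. The whole-window counts moved most. With a window from 500 bp upstream to 100 bp downstream, inside genes with a summit numbered 52 (24.1%), against 10.3% of all annotated genes. With 200 bp upstream to 100 bp downstream they numbered 43 (19.9%), with 94 snoRNA genes in all (27.2%), against 6.46% of all annotated genes. That window left 37 hosts with a promoter summit (19.7%), against 9.4% of protein-coding genes. Counting a summit only for the gene with the nearest start gave 99 snoRNA genes, 38 of them inside, and 60 hosts. Shares over all annotated genes were not counted for that setting, for either replicate alone or for the other proximal bands. All 30000 pooled candidates gave 240 snoRNA genes (69.4%, against 38.1% of all annotated genes), 145 inside, 86 inside outside every promoter window and 143 hosts (76.1%, against 47.2% of protein-coding genes). Summits above the median signal left 27 outside genes with a summit outside every promoter window, against 42. Without one or the other replicate, counts were 152 to 161 for all snoRNA genes, 81 to 87 inside, 71 to 74 outside, 36 to 42 and 41 to 45 away from promoter windows, and 90 to 93 for hosts. The share was higher outside than inside in each setting tried, by 5.95 percentage points with all candidates to 29.3 with the nearest start only. For proximal summits, settings chosen after seeing the data gave 32 to 55 inside and 44 to 54 outside with the other bands, lists and replicates, except 39 outside above the median signal. Those with the paired element numbered 19 to 22 of 30. No paired analysis was possible because the study has 1 group. Unknown depth leaves unsettled whether genes without a summit lack binding, since no interval on the signal can be given.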
